A study of Mus musculus with 30 samples.

Results

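The plasminogen activator system was followed here through 5 of the 55487 genes in the count table: the activators Plau and Plat, the receptor Plaur, and the inhibitors Serpine2 and Serpinb2. Members were taken as the rows whose Ensembl identifier carries one of these symbols. All 5 were found and all 5 had enough counts to be tested among 17638 genes. The samples came from a mouse model of oral squamous cell carcinoma driven by 4-nitroquinoline-1-oxide (4NQO), a chemical that damages DNA. Messenger RNA was sequenced from 30 samples of male C57BL/6J mice, with 3 of normal pathology, 8 with hyperplasia, 7 with dysplasia, 6 with carcinoma in situ and 6 with invasive carcinoma. Every sample, the normal ones included, carries the same protocol of 100 ug/mL 4NQO in drinking water for 10 weeks from 6 weeks of age, which leaves unsaid whether the normal tissue was exposed. The labels also name the carcinoma as the source of every sample, and do not say that the samples of a stage come from separate mice, so each p-value reflects only how far the samples of a stage scatter, which may be technical.

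The activators cut the inactive precursor plasminogen into plasmin, a protease with broad specificity that dissolves fibrin, degrades matrix and activates other proteases and growth factors. Urokinase, made from Plau, acts mainly at the surface of cells that carry its receptor, made from Plaur, while the tissue-type activator, made from Plat, is best known for working on fibrin. Serpins stop both activators by forming a covalent complex with them. In squamous epithelia the urokinase arm is known from migrating keratinocytes at wound edges and from the edges of carcinomas.

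Levels are given in CPM, a gene's counts scaled to the library total as adjusted by TMM factors, as mean ± SD. Total counts per sample ran from 17725604 to 28023098. Differences are log2 fold changes ± 1 standard error from edgeR's quasi-likelihood test, with p-values adjusted by Benjamini-Hochberg over all 17638 genes, and a gene is called at an adjusted p under 0.05. Comparisons with normal tissue share the same 3 normal samples. Sample codes begin with D (normal), A (hyperplasia), B (dysplasia) or C (carcinoma, in situ and invasive). Any batch tied to those letters cannot be told apart from stage, except within C. The samples are pieces of tissue, in which fewer cells of a type and less RNA per cell cannot be told apart. Summed skeletal muscle markers had medians of 44800 CPM (normal), 33800 (hyperplasia), 29600 (dysplasia), 26300 (in situ) and 24200 (invasive). Summed basal keratinocyte markers, which label the layer from which the epithelium renews itself, had medians of 5610, 7440, 8810, 10900 and 12200 CPM over the same stages. None of the markers in either list was at 0 in any stage, and their part in the results below was tested only as a covariate.

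Among the activators, Plau rose with stage, reaching 3.79 times its normal level in invasive carcinoma. The gene lies on GRCm38 chromosome 14, 20836660 to 20843385, plus strand (ENSMUSG00000021822.3). Normal samples held 21.3, 19.9 and 20.1 CPM. Hyperplasia ran from 24.9 over a median of 31.0 to 44.9 CPM, and dysplasia from 33.5 over 41.3 to 44.4 CPM. All 8 hyperplasia and all 7 dysplasia samples therefore lay above every normal sample, as 14.6% and 20.6% of all genes were separated in one direction or the other, while hyperplasia and dysplasia overlapped. Carcinoma in situ ran from 37.8 over 69.1 to 109 CPM and invasive carcinoma from 44.1 over 73.5 to 139 CPM, a wider scatter than in the earlier stages. Both carcinoma groups lay wholly above normal (26.6% and 32.4% of all genes were so separated), but 1 of 6 in situ samples fell inside the dysplasia range. So did the invasive sample C05, at 44.05 CPM against 44.38 in the highest dysplasia sample.

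Group means of Plau were 20.4 ± 0.764 CPM (normal, n = 3), 31.6 ± 6.11 (hyperplasia, n = 8), 40.9 ± 3.48 (dysplasia, n = 7), 73.3 ± 25.7 (in situ, n = 6) and 77.4 ± 33.4 (invasive, n = 6). Against normal tissue, Plau did not pass in hyperplasia (0.63 ± 0.26, adjusted p = 0.107). It rose in dysplasia by 1.003 ± 0.27 (adjusted p = 0.00936), in the in situ stage by 1.84 ± 0.29 (6.3e-05) and in invasive carcinoma by 1.92 ± 0.29 (2.2e-05). The step from hyperplasia to dysplasia was 0.37 ± 0.19 (adjusted p = 0.269) and did not pass. The step from dysplasia to carcinoma in situ was a rise of 0.84 ± 0.21 (adjusted p = 0.0219), the only one of the 5 members to be called there, where 5.47% of all genes were called in either direction. Between the carcinoma stages the difference was 0.08 with a 95% interval of -0.34 to 0.50 (adjusted p = 0.945). Against hyperplasia, Plau in invasive carcinoma was higher by 1.29 ± 0.20 (adjusted p = 3.9e-05), where 38.4% of all genes were called.

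The 2 carcinoma results against normal stayed called under every alternative that was run, although adjusting for the basal keratinocyte score lowered them to 1.16 and 1.12. The dysplasia call against normal ended without normal sample D02 (0.98, adjusted p = 0.0687), with the muscle score as a covariate (0.57, 0.187) and with the basal keratinocyte score (0.60, 0.149). The rise from dysplasia to carcinoma in situ was lost without C02, C07 or C10 (0.70, 0.87 and 0.76, with adjusted p of 0.0684, 0.0512 and 0.0688) and with the basal keratinocyte score (0.56, 0.0799), and without the expression filter (0.83, 0.0537).

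**Figure D1:**
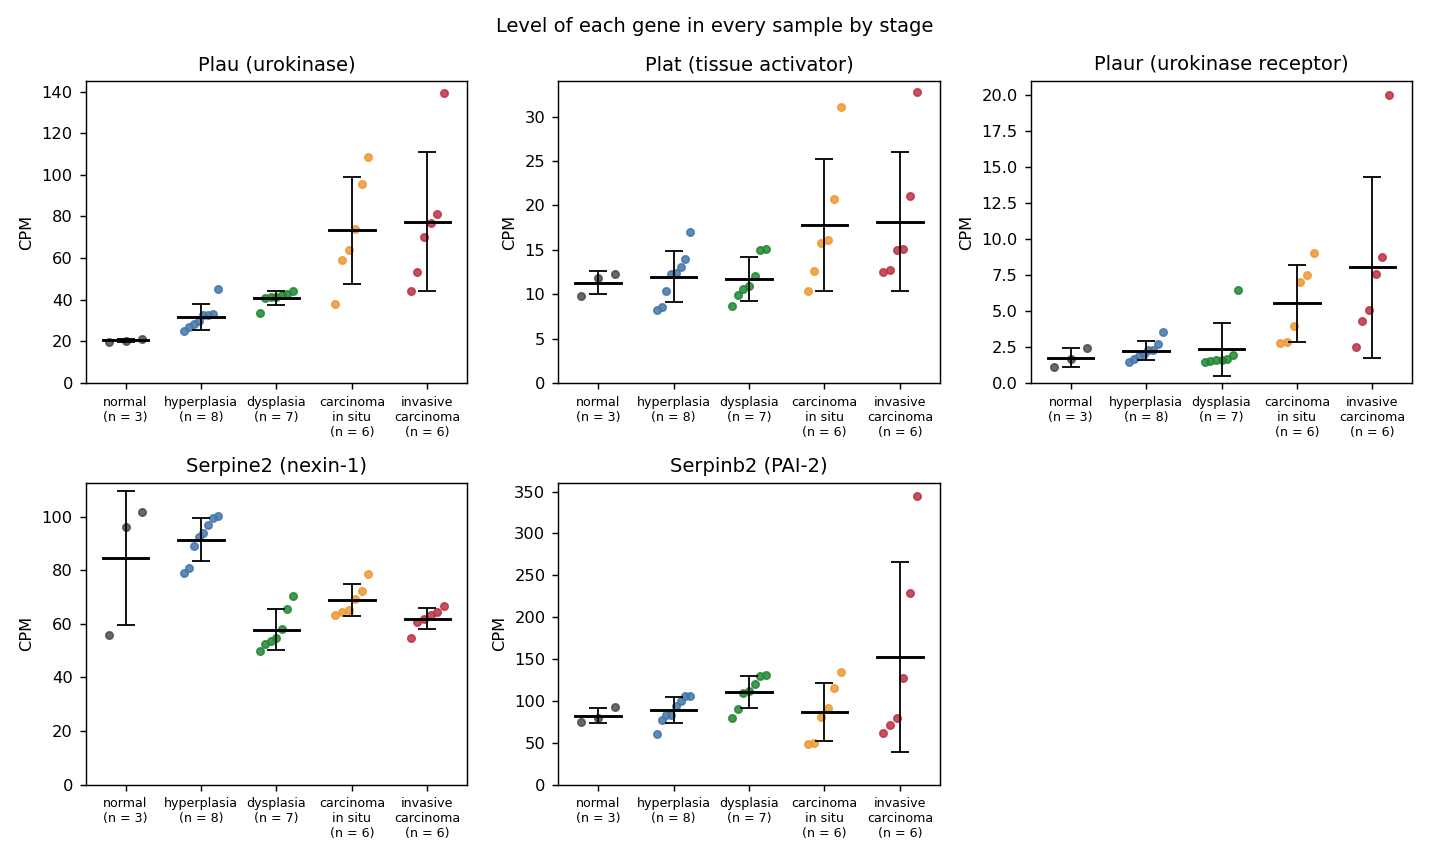
Level of the 5 genes in each of the 30 samples, in CPM on linear axes that start at 0, by stage. Points are samples, the long bar is the group mean and the whiskers are ± 1 SD. Plau climbs from 20.4 to 77.4 CPM and Serpine2 drops between hyperplasia and dysplasia. Plaur has the invasive sample C09 far above the rest of its group, and Serpinb2 has C09 and C06 above every other sample.

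Plat moved less than Plau. It lies on chromosome 8, 22757727 to 22782844, plus strand (ENSMUSG00000031538.6). Normal samples held 9.80, 12.3 and 11.8 CPM, hyperplasia 8.24 to 17.1 with a median of 12.3, and dysplasia 8.65 to 15.2 with a median of 10.9. These 3 stages overlapped throughout. Carcinoma in situ ran from 10.3 over 16.0 to 31.1 CPM and invasive carcinoma from 12.5 over 15.0 to 32.8 CPM, in each case with 1 sample, C02 and C12, well above the others. Means were 11.3 ± 1.31 CPM (normal, n = 3), 11.98 ± 2.91 (hyperplasia, n = 8), 11.7 ± 2.50 (dysplasia, n = 7), 17.8 ± 7.42 (in situ, n = 6) and 18.2 ± 7.80 (invasive, n = 6).

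No comparison with normal tissue passed for Plat in the main fit. Without C11 the difference in carcinoma in situ was called (0.778, adjusted p = 0.0408). In invasive carcinoma it was called without C06 (0.771, adjusted p = 0.0435) or C08 (0.782, 0.0391). Over single-sample removals the differences ran from 0.423 to 0.778 in carcinoma in situ and from 0.435 to 0.782 in invasive carcinoma. With all samples the differences were 0.66 ± 0.30 in carcinoma in situ (adjusted p = 0.0863) and 0.69 ± 0.30 in invasive carcinoma (0.0632). All 6 invasive samples nevertheless lay above every normal sample, a separation that 32.4% of all genes show. Against hyperplasia, invasive carcinoma was called higher by 0.60 ± 0.22 (adjusted p = 0.0341). That call rests on few samples, since without C12 the difference was 0.35 (adjusted p = 0.2) and leaving out A06, A07 or C09 also ended it. It also ended with either the muscle or the basal keratinocyte score as a covariate (0.39, 0.406 and 0.13, 0.861), with the salivary gland score (0.53, 0.0597), without the expression filter (0.59, 0.0848) and with limma-voom (0.39, 0.117).

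The balance between the activators was compared within each sample as the ratio of Plau to Plat counts per length of exon, which does not depend on how libraries are scaled. That length joins all annotated exons, 2367 bases for Plau and 6241 for Plat, so the size of each ratio depends on it. Normal samples had ratios of 5.72, 4.27 and 4.50, from counts of 393 and 181, 353 and 218, and 457 and 268. The median was 6.91 in hyperplasia (4.18 to 10.6), 9.95 in dysplasia (7.25 to 13.5), 9.53 in the in situ stage (7.89 to 18.9) and 10.4 in invasive carcinoma (7.72 to 16.7). Urokinase transcripts were thus the more abundant per length in all 30 samples, and the dysplasia and both carcinoma groups lay wholly above normal. The log2 ratio was 2.26 ± 0.226 (normal, n = 3), 2.82 ± 0.454 (hyperplasia, n = 8), 3.22 ± 0.353 (dysplasia, n = 7), 3.45 ± 0.525 (in situ, n = 6) and 3.48 ± 0.425 (invasive, n = 6).

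Exact two-sided permutation tests of the log2 ratio were adjusted over 8 comparisons. Dysplasia exceeded normal by 0.96 (exact p = 0.0167, adjusted 0.0476), carcinoma in situ by 1.19 (exact p = 0.0238, adjusted 0.0476) and invasive carcinoma by 1.22 (exact p = 0.0238, adjusted 0.0476). These are the smallest exact p-values that 3 normal samples allow, and removing a normal sample or a carcinoma sample leaves each of the carcinoma comparisons unable to pass. The ratio in invasive carcinoma also exceeded that in hyperplasia by 0.67 (exact p = 0.0167, adjusted 0.0476), a call that 10 of the 14 single-sample removals ended. From dysplasia to carcinoma in situ the ratio differed by 0.23 (exact p = 0.358, adjusted 0.409), and between the carcinoma stages by 0.03 (exact p = 0.913).

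**Figure D2:**
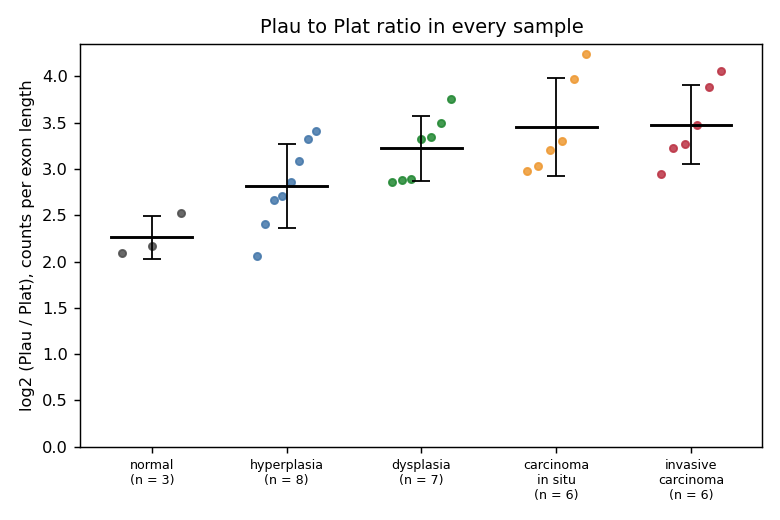
The log2 ratio of Plau to Plat, both as counts per exon length, in each of the 30 samples by stage. Points are samples, long bars are group means and whiskers are ± 1 SD. The 3 normal samples average 2.26 and every dysplasia and carcinoma sample lies above them, while hyperplasia spreads over both.

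Plaur, which encodes the urokinase receptor, was a scarce transcript that rose in the carcinomas. It lies on chromosome 7, 24462484 to 24475968, plus strand (ENSMUSG00000046223.10). Normal samples held 2.44, 1.13 and 1.67 CPM, which are 45, 20 and 38 counts. Hyperplasia ran from 1.42 over 2.14 to 3.53 CPM, and dysplasia from 1.47 over 1.598 to 6.46 CPM. In dysplasia 6 of 7 samples lay within 1.47 to 1.95 CPM and the seventh, B01, stood apart at 6.46. Carcinoma in situ ran from 2.75 over 5.49 to 9.01 CPM and invasive carcinoma from 2.49 over 6.33 to 19.97 CPM, where the top sample, C09, was far above the next at 8.70. All samples of both carcinoma groups lay above every normal sample, a separation seen in 26.6% of all genes for carcinoma in situ and in 32.4% for invasive carcinoma.

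Mean Plaur was 1.74 ± 0.659 CPM (normal, n = 3), 2.22 ± 0.664 (hyperplasia, n = 8), 2.32 ± 1.83 (dysplasia, n = 7), 5.52 ± 2.67 (in situ, n = 6) and 8.02 ± 6.27 (invasive, n = 6). Against normal tissue the differences in hyperplasia (0.35 ± 0.54, adjusted p = 0.718) and dysplasia (0.41 ± 0.55, 0.618) did not pass. Plaur rose in carcinoma in situ by 1.66 ± 0.57 (adjusted p = 0.0237) and in invasive carcinoma by 2.20 ± 0.58 (0.00326). Against hyperplasia, invasive carcinoma was higher by 1.85 ± 0.40 (adjusted p = 0.00084), a call that ended with samples blocked by replicate number. The step from dysplasia to carcinoma in situ was 1.25 ± 0.41 (adjusted p = 0.0679) and reached 1.76 (0.00863) when B01 was left out. The call in carcinoma in situ against normal ended without D02 (1.44, adjusted p = 0.115), and without D03 (1.63, 0.0749). It also ended without the expression filter (1.63, adjusted p = 0.0555) and with the muscle (1.74, 0.0558) or basal keratinocyte score as a covariate (2.18, 0.0804).

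Summed neutrophil markers ran from 1.58 to 4.77 CPM in normal tissue, 3.27 to 5.65 in hyperplasia, 2.81 to 23.7 in dysplasia, 5.01 to 46.2 in the in situ stage and 7.71 to 59.3 in invasive carcinoma. Of the 4 tested markers in that list of 5, 2 were called higher in invasive carcinoma than in normal tissue, where 46.1% of all genes were called, and 4 than in hyperplasia, where 38.4% were. Summed macrophage markers had medians of 152, 155, 125, 144 and 150 CPM from normal tissue to invasive carcinoma. Of 8 macrophage markers, 1 was called higher and 1 lower in each carcinoma stage against normal. The part of these cells, which can carry the urokinase receptor, in the Plaur result was not tested.

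The inhibitors did not move together. Serpine2 encodes nexin-1, a serpin that blocks urokinase, thrombin and tissue-type activator near cell surfaces, and it was the member that fell. It lies on chromosome 1, 79794197 to 79861180, minus strand (ENSMUSG00000026249.10). Hyperplasia ran from 78.9 over 93.2 to 100 CPM, and dysplasia from 49.8 over 54.9 to 70.5 CPM. All 7 dysplasia samples lay below all 8 hyperplasia samples, a separation seen in 1.92% of all genes. Carcinoma in situ ran from 63.5 over 67.2 to 78.7 CPM and invasive carcinoma from 54.8 over 62.6 to 66.6 CPM, so that invasive carcinoma also lay wholly below hyperplasia, and 7.86% of all genes separated these stages in one direction or the other. The normal samples were split, with D01 at 55.9 CPM against 102 in D02 and 96.1 in D03.

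Mean Serpine2 was 84.6 ± 25.0 CPM (normal, n = 3), 91.5 ± 8.05 (hyperplasia, n = 8), 57.9 ± 7.55 (dysplasia, n = 7), 68.9 ± 5.83 (in situ, n = 6) and 62.0 ± 4.06 (invasive, n = 6). From hyperplasia to dysplasia it fell by 0.66 on the log2 scale (SE 0.09, adjusted p = 5.8e-05). It was the one member called in that comparison, where 5.18% of all genes were called in either direction, and the call held under every alternative, at -0.54 with the muscle score as a covariate. From hyperplasia to invasive carcinoma it fell by 0.56 on the log2 scale (SE 0.10, adjusted p = 0.00012), a call that ended with the basal keratinocyte score as a covariate (-0.41, 0.0819). Against normal tissue it fell by 0.55 in dysplasia (SE 0.12, adjusted p = 0.00231) and by 0.45 in invasive carcinoma (SE 0.12, 0.00451), while carcinoma in situ gave -0.30 ± 0.13 (0.0617). Without D01, the low normal sample, the differences in dysplasia, invasive carcinoma and carcinoma in situ became -0.77, -0.66 and -0.51, all called. With the muscle score as a covariate dysplasia gave -0.38 (adjusted p = 0.0725) and invasive carcinoma -0.23 (0.257), and with the basal keratinocyte score invasive carcinoma gave -0.27 (0.353). Without D02 the 3 differences were -0.40 (adjusted p = 0.0538), -0.29 (0.0856) and -0.14 (0.468), and without D03 invasive carcinoma gave -0.34 (0.0504).

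Markers of several cell types were lower beside Serpine2. From hyperplasia to dysplasia, 3 of 5 Schwann cell markers, 2 of 8 fibroblast markers, 2 of 8 macrophage markers, 1 of 10 muscle markers and 0 of 8 endothelial markers were called lower, where 5.18% of all genes were called in either direction. From hyperplasia to invasive carcinoma these counts were 4 of 5 for Schwann cells, 6 of 8 for fibroblasts, 0 of 8 for macrophages, 6 of 10 for muscle and 8 of 8 for endothelial cells, where 38.4% of all genes were called. The summed Schwann cell markers ran from 248 to 410 CPM in hyperplasia and from 168 to 278 CPM in dysplasia, and the summed fibroblast markers from 1180 to 1940 and from 1020 to 1450 CPM. No marker of these lists was at 0. The part of Schwann cells, fibroblasts, macrophages and endothelial cells in the fall of Serpine2 was not tested.

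Serpinb2 encodes PAI-2, an inhibitor of urokinase that largely stays inside cells and is made by differentiating keratinocytes. It lies on chromosome 1, 107511423 to 107535478, plus strand (ENSMUSG00000062345.10), and shares 291 of its 2349 exonic bases with Serpinb10 on the same strand, so that reads there could count for either. Normal samples held 92.4, 79.9 and 74.7 CPM, hyperplasia 60.9 to 106 with a median of 88.8, and dysplasia 80.2 to 131 with a median of 112. Carcinoma in situ ran from 48.4 over 86.2 to 135 CPM, reaching below and above the normal samples. Invasive carcinoma ran from 61.8 over 104 to 345 CPM, with C09 at 345 and C06 at 229 above every other sample of the series and the other 4 at 61.8 to 127.

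Mean Serpinb2 was 82.3 ± 9.11 CPM (normal, n = 3), 88.7 ± 15.4 (hyperplasia, n = 8), 110 ± 19.2 (dysplasia, n = 7), 86.7 ± 34.8 (in situ, n = 6) and 152 ± 113 (invasive, n = 6). No comparison with normal tissue passed in the main fit, where invasive carcinoma gave 0.89 ± 0.41 (adjusted p = 0.0747). That difference was called with limma-voom (0.857, adjusted p = 0.0177). It was also called without C03, C05 or C12 (1.04, 1.02 and 1.05, with adjusted p of 0.0344, 0.0397 and 0.0317). All 9 single-sample removals gave 0.464 to 1.05. Against hyperplasia, Serpinb2 in invasive carcinoma was called higher by 0.78 ± 0.30 (adjusted p = 0.0386). Leaving out C09 brought this to 0.36 (adjusted p = 0.298) and leaving out C06 to 0.63 (0.114), and leaving out A01, A02, A04 or A08 also ended the call. It ended too with the muscle or the basal keratinocyte score (0.66, 0.249 and 0.64, 0.454), without the expression filter (0.75, 0.0923) and in a fit of the 2 groups alone (0.79, 0.0957). The groups overlapped, with 3 of 6 invasive samples above every hyperplasia sample.

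**Figure D3:**
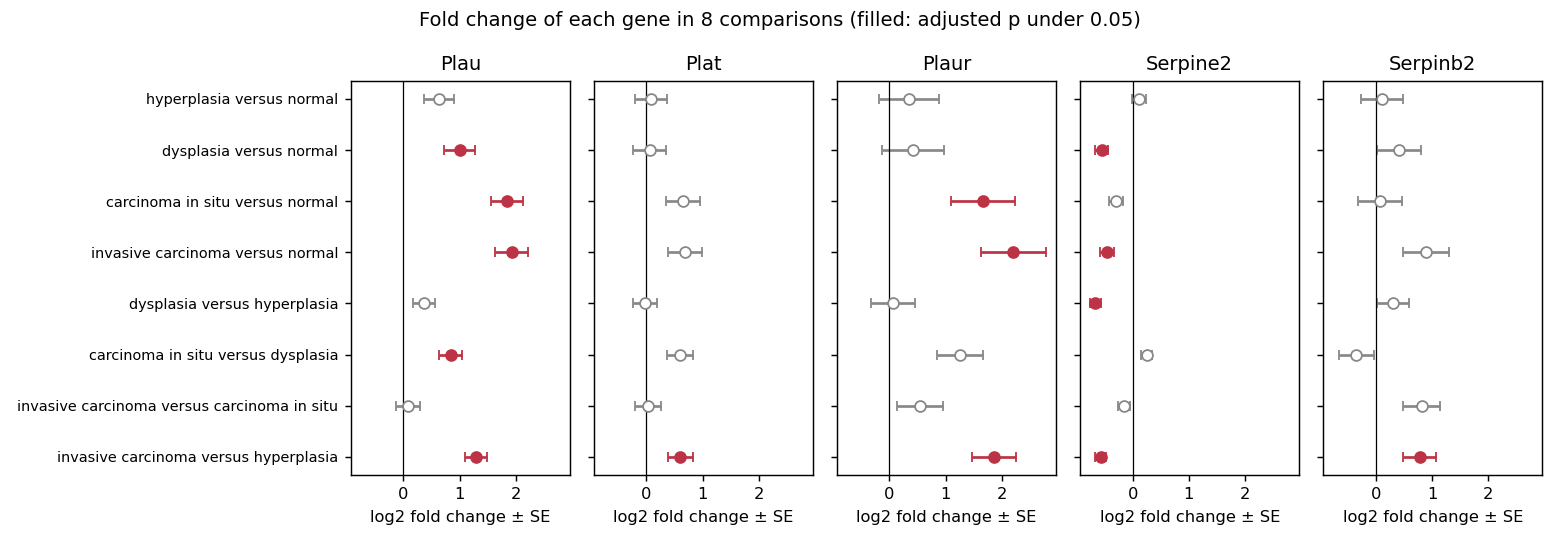
Log2 fold change of each of the 5 genes in the 8 comparisons, with whiskers of ± 1 standard error from the edgeR fit and the same axis in each panel. Filled points have an adjusted p under 0.05. Plau and Plaur have filled points to the right of 0 in both carcinoma stages against normal, those of Serpine2 lie to the left, and none is filled between invasive carcinoma and carcinoma in situ.

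Counted over the comparisons, 0 of 5 members were called in hyperplasia against normal (14.3% of all genes in either direction), 2 in dysplasia (25.7%), 2 in the in situ group (37.6%) and 3 in the invasive group (46.1%). Against hyperplasia, all 5 were called in invasive carcinoma, 4 higher and 1 lower, where 38.4% of all genes were called. Of these 5 calls, those of Plat and Serpinb2 are the ones that removing a single sample ended. With the basal keratinocyte score as a covariate 1 of 5 was called. The calls of Plat, Serpine2 and Serpinb2 ended there, and so did that of either Plau or Plaur. Plau, Plat, Plaur and Serpine2 differed over the 5 stages as a whole (adjusted p = 3.3e-06, 0.0232, 0.00043 and 1.6e-05), as 53.2% of all genes did, and Serpinb2 did not pass (0.0906). Between carcinoma in situ and invasive carcinoma edgeR called 0 of 17638 genes (0.0%), with 1259 at an unadjusted p under 0.05, and DESeq2 and limma-voom also called 0.

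Per kilobase of exon, Serpinb2 had the highest mean of the 5 members at every stage, with 35.1 ± 3.88 CPM per kilobase in normal tissue (n = 3) and 64.9 ± 48.1 in invasive carcinoma (n = 6). In normal tissue Serpine2 came next at 10.2 ± 3.02, then Plau at 8.62 ± 0.323, Plat at 1.81 ± 0.209 and Plaur at 0.667 ± 0.252. The ranges of Serpine2 and Plau overlapped there on this scale, while in CPM their normal means were 84.6 and 20.4. In invasive carcinoma Plau, at 32.7 ± 14.1, stood above Serpine2 at 7.48 ± 0.490, and Plaur at 3.06 ± 2.395 lay beside Plat at 2.91 ± 1.25. In carcinoma in situ the means of Serpinb2, 36.9 ± 14.8, and Plau, 30.95 ± 10.9, were close, and Plau was the higher in C02 (45.9 against 20.6) and, in invasive carcinoma, in C12 (58.8 against 26.3). No test was run between genes. The order depends on the length used, which joins all annotated exons (2349 bases for Serpinb2, 8287 for Serpine2) and is not a transcript length. In CPM, mean Serpine2 exceeded mean Serpinb2 in normal tissue (84.6 against 82.3) and in hyperplasia (91.5 against 88.7).

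Upstream sequences from RefSeq on GRCm38.p6 were available for 3 of the 5 members, and are shown because these 3 did not move alike: Plaur rose, Serpine2 fell and Serpinb2 changed in few samples. Each is the 250 bases before a RefSeq start, 5′ to 3′ on the gene's strand. The RefSeq start of Serpine2 lies inside the GENCODE gene span given above, which begins further upstream. Serpinb2 has a second RefSeq start, downstream of the one shown. Capitals mark matches on either strand to an AP-1 motif (TGANTCA), a GC box (GGGCGG) or a TATA box (TATAAA). They also mark matches to TGACNTCA, a looser form of the cyclic AMP response element, called CRE-like here. Neighbouring GC boxes overlap.
Plaur, chr7:24462233-24462482, plus strand: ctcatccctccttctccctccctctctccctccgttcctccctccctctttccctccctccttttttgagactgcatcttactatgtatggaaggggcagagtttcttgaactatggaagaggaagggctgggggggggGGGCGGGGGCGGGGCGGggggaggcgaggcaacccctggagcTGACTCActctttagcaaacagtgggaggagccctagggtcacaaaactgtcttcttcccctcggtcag
Serpine2, chr1:79858666-79858915, minus strand: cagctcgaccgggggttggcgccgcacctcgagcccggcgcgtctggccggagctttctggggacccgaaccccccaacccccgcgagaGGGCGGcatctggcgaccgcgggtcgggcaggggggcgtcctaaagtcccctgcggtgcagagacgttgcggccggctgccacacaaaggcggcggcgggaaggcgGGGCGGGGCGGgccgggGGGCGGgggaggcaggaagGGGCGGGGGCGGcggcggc
Serpinb2, chr1:107511173-107511422, plus strand: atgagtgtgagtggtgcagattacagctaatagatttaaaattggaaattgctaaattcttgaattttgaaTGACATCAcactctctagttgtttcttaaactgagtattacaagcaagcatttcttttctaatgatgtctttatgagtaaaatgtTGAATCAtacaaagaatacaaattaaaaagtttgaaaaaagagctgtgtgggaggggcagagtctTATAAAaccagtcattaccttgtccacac

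The Plaur window held an AP-1 match that begins 69 bases before the start and 3 GC boxes. That of Serpine2 held 6 GC boxes and no match to the other motifs. The Serpinb2 window held an AP-1 match at 94 bases, a CRE-like match at 179 and a TATA box at 29 bases before the start. Counted from the second Serpinb2 start, the AP-1 match lies at 181 and the TATA box at 116 bases, and the window holds no CRE-like match. Of 32851 RefSeq upstream windows of the same length, 6.75% held an AP-1 match, 7.49% a CRE-like match, 32.7% a GC box and 12.4% a TATA box. AP-1 is a transcription factor family that responds to growth factors and stress. These are matches of letters and were not measured as binding.

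How the 5 genes varied together within stages was compared over the samples. Deviations of log2 CPM from the stage mean were correlated over the 30 samples for 10 pairs, with permutations within stages. No pair passed by Pearson's r after adjustment. Plat and Plaur came closest with r = 0.546 (permutation p = 0.00805, adjusted 0.0805) and Spearman's rho = 0.565 (permutation p = 0.00399, adjusted 0.0308). Their r was 0.582 without the 2 samples farthest from the median of Plat, and 0.611, 0.534 and 0.616 within the 8 hyperplasia, 7 dysplasia and 12 carcinoma samples. Plat and Serpine2 had r = 0.291 (permutation p = 0.0396, adjusted 0.197) and rho = 0.48 (permutation p = 0.00616, adjusted 0.0308), with r of 0.948 in hyperplasia, 0.671 in dysplasia and -0.183 in the carcinomas. The r of some other pairs also differed in sign or size between stages, which the pooled value averages over. Plaur and Serpinb2 had -0.668 in hyperplasia, -0.683 in dysplasia and 0.561 in the carcinomas. Plat and Serpinb2 had -0.462, -0.882 and -0.178, Serpine2 and Serpinb2 -0.394, -0.743 and 0.378, and Plaur and Serpine2 0.456, 0.786 and 0.238 over the same 3 sets. These values within stages were not tested. Urokinase and its receptor, Plau and Plaur, had r = 0.349 (permutation p = 0.143, adjusted 0.285) and rho = 0.43 (permutation p = 0.0443, adjusted 0.137).

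The genes whose within-stage deviations were most like each member were ranked among 11174 genes by Pearson's r over the 30 samples, as a description. Plaur was closest to Cd14, the monocyte receptor for bacterial lipopolysaccharide (r = 0.946, 0.967 within the 12 carcinomas and 0.911 within the 15 hyperplasia and dysplasia samples), then Arid5a (0.848) and Anxa3 (0.827). B01, the dysplasia sample apart in Plaur, was also apart in Cd14, at 9.43 CPM against 2.95 to 4.04 in the other dysplasia samples. The r without B01 was not computed. Mean Cd14 was 3.24 CPM in normal tissue and 12.4 CPM in invasive carcinoma. For Plau they were Adam10, a sheddase that cuts membrane proteins (0.90), Lrat, which esterifies retinol (0.887), and Slc44a1, a choline transporter (0.883). For Plat they were Itgb1, the integrin beta-1 chain (0.862), Ctsb, the lysosomal protease cathepsin B (0.775), and Pi15 (0.763).
For Serpine2 they were Gng11 (0.805), Dusp3 (0.788) and Angptl2 (0.764). In that order their r was 0.733, 0.509 and 0.361 within the carcinomas, and 0.627, 0.71 and 0.836 within the hyperplasia and dysplasia samples. For Serpinb2 they were the zinc transporter Slc30a4 (0.874) and the histone H3.3 genes H3f3a (0.853) and H3f3b (0.852), which have processed copies elsewhere that could share reads.

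**Figure D4:**
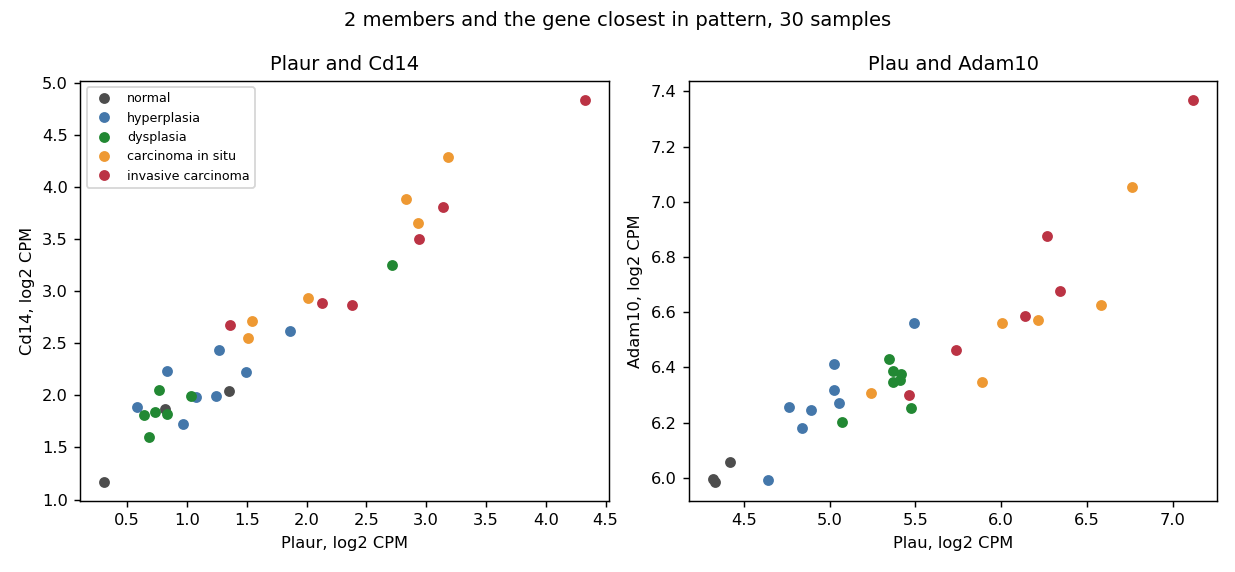
Plaur against Cd14 and Plau against Adam10 in log2 CPM over the 30 samples, coloured by stage. Axes are logarithmic units and do not start at 0. Both pairs rise together over the 30 samples, with r over deviations from the stage mean of 0.946 and 0.90. Within dysplasia the rise of Plau with Adam10 rests on B02 (5.07 and 6.204). Among the other dysplasia samples, B03 had the highest Plau and the lowest Adam10 (5.475 and 6.252). B06 had the lowest Plau and the highest Adam10 among them (5.346 and 6.429).

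The other genes of the pathway were taken from a list of 35 partners, of which 27 were tested. Plasminogen itself was close to absent as a transcript: Plg had 28 counts over all 30 samples and at most 5 in any sample. Plasminogen is a plasma protein made in the liver. F12, Klkb1, Serpina5, Pzp, Fga and Fgg were also too low to test, with 8 to 54 counts in all, and Cpb2 had 0. Called higher and lower were 1 and 2 of the 27 partners in hyperplasia against normal, 4 and 3 in dysplasia, 12 and 2 in the in situ stage and 13 and 4 in invasive carcinoma, beside 14.3%, 25.7%, 37.6% and 46.1% of all genes called in either direction. Median log2 fold changes were 0.14, 0.17, 0.33 and 0.46, beside 0.01, 0.01, 0.02 and 0.02 over all tested genes. The step from hyperplasia to dysplasia gave 1 and 0, from dysplasia to carcinoma in situ 3 and 1, and between the carcinoma stages 0 and 0. Invasive carcinoma against hyperplasia gave 11 and 3. All genes were called at 5.18%, 5.47%, 0.0% and 38.4% in these 4 comparisons.
The counts were smaller after adjusting for the marker scores: with the basal keratinocyte score as a covariate 3 partners were called in each carcinoma stage against normal, and with the muscle score 8 in each.

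Among the partner inhibitors, A2m, a broad protease trap, and Serpinf2, the plasmin inhibitor antiplasmin, averaged under 1 CPM at each stage, and both were called higher in the carcinoma stages than in normal tissue. In carcinoma in situ the Serpinf2 call (1.22, adjusted p = 0.0364) held in 4 of 9 removals of a single sample and ended without D01, D02, C02, C04 or C11, with adjusted p up to 0.214. The A2m call (2.88, adjusted p = 0.0222) held in 6 of 9 and ended without D01, D02 or D03, with adjusted p up to 0.0854. In invasive carcinoma the Serpinf2 call (1.43, adjusted p = 0.00759) ended without D02 (1.07, 0.0779). The A2m call there (2.59, adjusted p = 0.0339) held in 5 of 9 and ended without D01, D02, D03 or C06, with adjusted p up to 0.107. Among the 4 cell-surface binders of plasminogen, 3 were called higher in invasive carcinoma than in normal tissue, where 46.1% of all genes were called in either direction. Eno1, the glycolytic enzyme enolase, which also binds plasminogen at the surface, went from 254 ± 55.6 CPM (n = 3) to 537 ± 126 (n = 6), a rise of 1.08 ± 0.18 (adjusted p = 4e-05). It has a near-identical copy that could share reads. Anxa2, annexin A2, rose by 0.65 ± 0.17 (adjusted p = 0.00298) and the plasminogen receptor Plgrkt by 0.46 ± 0.12 (0.0019). With the basal keratinocyte score as a covariate Eno1 gave 0.36 (adjusted p = 0.109), Anxa2 0.17 (0.65) and Plgrkt 0.50 (0.0568), and with the muscle score Anxa2 gave 0.41 (0.135).

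Clearance receptors, which take up complexes of activator and inhibitor, went in both directions. Vldlr fell by 1.21 on the log2 scale in invasive carcinoma (SE 0.17, adjusted p = 8e-06), from 189 ± 22.8 CPM (n = 3) to 81.6 ± 17.5 (n = 6), and all 6 invasive samples lay below every normal sample, a separation seen in 32.4% of all genes. The call of Vldlr held with either score as a covariate. Sorl1 fell by 0.55 (SE 0.18, adjusted p = 0.016), and Lrp1 rose by 0.47 ± 0.17 (0.0228). The calls of Sorl1 and Lrp1 ended with either the muscle or the basal keratinocyte score as a covariate, and also without D02 or D03 for Sorl1 (adjusted p = 0.0853 and 0.0592) and without D01, D02 or C12 for Lrp1 (0.0608, 0.11 and 0.0729). Srpx2, a secreted ligand of the urokinase receptor, fell by 0.96 on the log2 scale in invasive carcinoma (SE 0.23, adjusted p = 0.00126), and this call ended with the muscle score (-0.60, 0.104) and with the basal keratinocyte score (-0.28, 0.594). Integrins that partner with the receptor rose in part, with Itga3 higher by 0.96 ± 0.19 (adjusted p = 0.00022) and Itgav by 0.50 ± 0.10 (0.00036) in invasive carcinoma. With the basal keratinocyte score these became 0.29 (adjusted p = 0.356) and 0.155 (0.408). Of the other integrins, added after their values were seen, Itgam was higher by 1.47 ± 0.32 (adjusted p = 0.00054). Itgb2 was higher by 0.84 ± 0.26 (adjusted p = 0.00994) and Itga5 by 0.67 ± 0.22 (0.0152), while Itgb1 was not called (0.13 ± 0.13, 0.434). Their values with the marker scores are not given. Itgb3, the integrin beta-3 chain, named here after its values were seen, was called lower by 0.69 on the log2 scale (SE 0.26, adjusted p = 0.0307). Its normal samples held 5.49, 6.08 and 17.65 CPM, so that 1 high sample raises the normal mean of 9.74. The medians were alike, at 6.08 CPM in normal tissue and 6.05 in invasive carcinoma. Of 4 tested substrates, Mst1, the precursor of macrophage stimulating protein, rose by 0.59 ± 0.18 (adjusted p = 0.0079), a call that ended with the muscle score (0.44, 0.14) and with the basal keratinocyte score (0.34, 0.414).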

How the data were processed

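RNA from 30 mouse samples was made into stranded mRNA libraries, per the labels' protocols. The submitters' processing notes name cutadapt 2.4, STAR 2.7.2a and GRCm38. How reads were counted, with which strand setting and annotation, is not given in the sources used here. The authors deposited raw counts per Ensembl gene. Of 55487 identifiers, 55227 (99.53%) matched GENCODE M21, which gave symbols, positions and exon lengths.

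Groups follow the labelled stage, and all samples were used. edgeR 4.0.16 in R 4.3.3 (TMM factors 0.892 to 1.057, default expression filter, robust quasi-likelihood fit, 1 mean per stage) gave 8 two-sided comparisons and a test over the 5 stages. The fit was tested on simulated data. Log2 CPM used a prior count of 2. Total counts per sample bound the precision, which was lowest for Plaur and for partners under 1 CPM. Genes most like a member were sought among those tested that averaged 5 CPM or more and that are not predicted genes or pseudogenes. Partners named are those called in a carcinoma stage against normal, up to 3 per role by adjusted p. Plg and the integrins added after their values were seen are named besides. One gene that this rule names is not reported here. Marker lists numbered 10.

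Each result was recomputed with DESeq2 1.42.0, with limma-voom (limma 3.58.1, sample weights), with upper-quartile or RLE factors, unfiltered, on the 2 groups alone, at an adjusted p under 0.01, with a muscle, basal keratinocyte or salivary gland score as a covariate, without each sample in turn and with a replicate block. Leaving out D01, B01, C09 and C12 together, and the alternatives for partners, were added after seeing the data. The members and lists were chosen with earlier results of these data known. Permutation tests used scipy 1.17.1, with 100000 permutations for gene pairs.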

Additional observations from a re-analysis of the deposited data

Results flagged for a closer look

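In 20 groups (5 genes in 4 stages with 4 to 10 samples), Dixon's test for a sample apart marked 4, where chance marks about 1 in 20. Plaur was 6.46 CPM in dysplasia sample B01, against 1.47 to 1.95 CPM in the other 6. It was 19.97 CPM in invasive carcinoma sample C09, against 2.49 to 8.70 CPM in the other 5. Plau was 44.9 CPM (44.92) in hyperplasia sample A05, with the other 7 at 24.9 to 33.1 CPM, and 33.5 CPM in dysplasia sample B02, with the other 6 at 40.6 to 44.4 CPM. Without B01 the rise of Plaur from dysplasia to carcinoma in situ was 1.76 (adjusted p = 0.00863, edgeR) in place of 1.25 (0.0679). Without C09 Plaur in invasive carcinoma was higher than normal by 1.69 (adjusted p = 0.00892) in place of 2.20, and than hyperplasia by 1.35 (0.00669) in place of 1.85, both still called.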

How the results depend on the processing

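Of the 40 differences (5 genes in 8 comparisons), direction and side of the threshold were kept by 40 with upper-quartile factors, 39 with RLE factors, 38 with DESeq2, 37 with a fit of the 2 groups compared, 36 each with no expression filter, the salivary gland score or an adjusted p under 0.01, 29 with the muscle score, 28 with the basal keratinocyte score, and 27 each with limma-voom or with D01, B01, C09 and C12 left out. The cause was not tested for any change given here.

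Counts of members called moved by over 1.5 times in these cases. Hyperplasia versus normal (0) gave 1 with a fit of the 2 groups compared and limma-voom. Dysplasia versus normal (2) gave 0 with the muscle score as a covariate and 1 with the basal keratinocyte score as a covariate. Carcinoma in situ versus normal (2) gave 1 with no expression filter, the muscle score as a covariate, the basal keratinocyte score as a covariate and an adjusted p under 0.01. Dysplasia versus hyperplasia (1) gave 2 with a fit of the 2 groups compared and limma-voom. Carcinoma in situ versus dysplasia (1) gave 0 with no expression filter, the basal keratinocyte score as a covariate and an adjusted p under 0.01, 2 with the muscle score as a covariate, the salivary gland score as a covariate and DESeq2, 3 with limma-voom and 4 with D01, B01, C09 and C12 left out. Invasive carcinoma versus hyperplasia (5) gave 1 with the basal keratinocyte score as a covariate and 3 with no expression filter, the muscle score as a covariate, D01, B01, C09 and C12 left out and an adjusted p under 0.01.

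Counts of partners called moved by over 1.5 times in these cases. Dysplasia versus normal (7) gave 0 with the muscle score as a covariate, 1 with the basal keratinocyte score as a covariate, 3 with no expression filter and 12 with limma-voom. Carcinoma in situ versus normal (14) gave 3 with the basal keratinocyte score as a covariate and 8 with the muscle score as a covariate. Invasive carcinoma versus normal (17) gave 3 with the basal keratinocyte score as a covariate and 8 with the muscle score as a covariate. Dysplasia versus hyperplasia (1) gave 0 with upper-quartile factors, no expression filter, the muscle score as a covariate and the basal keratinocyte score as a covariate, 2 with the salivary gland score as a covariate, 5 with D01, B01, C09 and C12 left out and 6 with a fit of the 2 groups compared and limma-voom. Carcinoma in situ versus dysplasia (4) gave 1 with no expression filter, 2 with the basal keratinocyte score as a covariate and a fit of the 2 groups compared and 8 with D01, B01, C09 and C12 left out. Invasive carcinoma versus hyperplasia (14) gave 1 with the basal keratinocyte score as a covariate and 7 with the muscle score as a covariate.

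Differences that changed direction were uncalled in both fits. With limma-voom, hyperplasia versus normal gave -0.0408 for Plat and -0.0188 for Serpine2, dysplasia versus normal gave -0.0814 for Plat, dysplasia versus hyperplasia gave -0.218 for Plaur and invasive carcinoma versus carcinoma in situ gave -0.0084 for Plau and -0.0454 for Plat. With D01, B01, C09 and C12 left out, hyperplasia versus normal gave -0.00909 for Plat and -0.119 for Serpine2, dysplasia versus normal gave -0.0979 for Plat, dysplasia versus hyperplasia gave -0.43 for Plaur and invasive carcinoma versus carcinoma in situ gave -0.242 for Plau, -0.371 for Plat and -0.111 for Plaur. With the muscle score as a covariate, dysplasia versus normal gave -0.113 for Plat, carcinoma in situ versus normal gave -0.0551 for Serpinb2 and invasive carcinoma versus carcinoma in situ gave -0.127 for Plau and -0.0575 for Plat. With the basal keratinocyte score as a covariate, dysplasia versus normal gave -0.204 for Plat, carcinoma in situ versus normal gave -0.0947 for Serpinb2, -0.131 for Anxa2 and 0.255 for Srpx2 and invasive carcinoma versus carcinoma in situ gave -0.0389 for Plau and -0.0478 for Plat. With the salivary gland score as a covariate, dysplasia versus normal gave -0.0178 for Plat and dysplasia versus hyperplasia gave -0.0935 for Plaur.

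Whether replicate numbers pair the samples was not settled. Of 31 same-numbered pairs 10 had a correlation of deviations over 0.1 (-0.573 to 0.513, median 0.0483), and pairs with different numbers were not computed beside them. With the replicate block 28 of the 40 differences kept direction and call. Plat in carcinoma in situ versus normal was newly called (0.823, adjusted p = 0.0278). Calls lost were Serpine2 in invasive carcinoma versus normal (-0.324, adjusted p = 0.197), Plau in carcinoma in situ versus dysplasia (0.734, 0.0746), and Plat (0.305, 0.386), Plaur (1.27, 0.0713) and Serpinb2 (0.373, 0.44) in invasive carcinoma versus hyperplasia. Counts moved for members to 0 in carcinoma in situ versus dysplasia and 2 in invasive carcinoma versus hyperplasia, and for partners to 9 in carcinoma in situ versus normal, 10 in invasive carcinoma versus normal, 2 in dysplasia versus hyperplasia and 5 in invasive carcinoma versus hyperplasia. Under the block, hyperplasia versus normal gave -0.0383 for Serpinb2, carcinoma in situ versus normal gave -0.175 for Serpinb2, dysplasia versus hyperplasia gave -0.0684 for Plaur and invasive carcinoma versus carcinoma in situ gave -0.28 for Plau, -0.313 for Plat and -0.0264 for Plaur, none of them called.

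Leaving out each sample in turn gave these lowest and highest values. Members called numbered 0 to 0 in hyperplasia versus normal, 0 to 2 in dysplasia versus normal, 1 to 3 in carcinoma in situ versus normal, 2 to 4 in invasive carcinoma versus normal, 1 to 1 in dysplasia versus hyperplasia, 0 to 2 in carcinoma in situ versus dysplasia, 0 to 0 in invasive carcinoma versus carcinoma in situ, 3 to 5 in invasive carcinoma versus hyperplasia and 4 to 5 over all stages. Partners called numbered 2 to 3 in hyperplasia versus normal, 2 to 8 in dysplasia versus normal, 8 to 14 in carcinoma in situ versus normal, 12 to 20 in invasive carcinoma versus normal, 0 to 2 in dysplasia versus hyperplasia, 1 to 6 in carcinoma in situ versus dysplasia, 0 to 0 in invasive carcinoma versus carcinoma in situ and 12 to 16 in invasive carcinoma versus hyperplasia. The log2 ratio of Plau to Plat differed by 0.471 to 0.684 in hyperplasia versus normal, 0.872 to 1.09 in dysplasia versus normal, 1.04 to 1.32 in carcinoma in situ versus normal, 1.1 to 1.35 in invasive carcinoma versus normal, 0.298 to 0.49 in dysplasia versus hyperplasia, 0.0757 to 0.327 in carcinoma in situ versus dysplasia, -0.0898 to 0.184 in invasive carcinoma versus carcinoma in situ and 0.548 to 0.772 in invasive carcinoma versus hyperplasia, and fewer samples raise the smallest exact p. Uncalled differences that reversed in such fits ranged, in hyperplasia against normal, from -0.0129 to 0.151 for Plat and from -0.121 to 0.25 for Serpine2, in dysplasia versus normal from -0.0277 to 0.117 for Plat and from -0.0919 to 0.725 for Plaur, in carcinoma in situ versus normal from -0.0968 to 0.204 for Serpinb2, in dysplasia versus hyperplasia from -0.093 to 0.0666 for Plat and from -0.428 to 0.188 for Plaur and in invasive carcinoma versus carcinoma in situ from -0.17 to 0.23 for Plau and from -0.221 to 0.27 for Plat. Depth limits Plaur in normal tissue, at 20 to 45 counts a sample, and partners under 1 CPM.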
